A study of Mus musculus with 50 samples.

Results

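The 96 genes described here encode the nuclear-encoded subunits of mitochondrial complexes I to V, with 8 assembly factors of complex I. They were taken from the 21631 protein-coding genes on chromosomes 1 to 19 and X of GRCm38 by symbol, as those beginning with Nduf, Uqcr or Atp5, those beginning with Cox and a digit from 4 to 8, and Sdha, Sdhb, Sdhc and Sdhd. Of them, 94 had at least 1 merged ATAC-seq peak within 2 kb of an end of the gene, and together they had 155 such peaks among the 144465 merged peaks. All 155 passed the filter on low counts at both time points (TPs). The main peak of a gene is the one of these with the most reads. Of the 94 genes, 41 had 1 peak, 45 had 2 and 8 had 3, on 19 chromosomes.

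ATAC-seq, in which a transposase cuts and tags open DNA, was run on neuronal nuclei (sorted by the marker NeuN) of male C57BL/6JRj mice, taken from the ventral hippocampus. Dams from a single breeder were sent while pregnant to 5 rearing facilities (RF1 to RF5), and their sons were killed either at 8 weeks, while still in the RF (TP1), or after transfer to a common test laboratory, where the labels give 14 weeks (TP2). By the methods, each TP2 mouse was a littermate of a TP1 mouse from the same cage. The labels used here do not link them, and the tests of both TPs treat them as separate mice. Mice of both TPs were test-naive and untreated, so that the groups differ by RF and TP alone, with 5 libraries of 1 mouse each in each of the 10 groups. The RFs differed in diet, light cycle and other husbandry at once, and no RF is a control for another. Libraries of a TP were amplified and sequenced as 1 batch. TP and batch cannot be told apart, and levels are compared between RFs within a TP.

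Complex I passes electrons from NADH, and complex II from succinate, to ubiquinone. Complex III passes them on to cytochrome c and complex IV to oxygen, and complex V, the ATP synthase, uses the proton gradient that complexes I, III and IV build to make ATP. All subunits of complex II are encoded in the nucleus, whereas the other complexes also hold subunits encoded in mitochondrial DNA, so that nuclear and mitochondrial genes have to be matched. In neurons most ATP comes from this pathway, and much of it is spent on ion pumping and synaptic transmission. The promoters of these genes are known for binding sites of NRF-1, of the ETS factor GABP, of YY1 and of SP1. Complex IV has isoforms of several subunits that are made mainly in heart, skeletal muscle or testis.

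Promoter windows of 300 bases (250 before to 50 after the start of transcription) were available from RefSeq (GRCm38.p6) for 78 of the 96 genes, as 83 windows. Both strands were searched for NRF-1 (GCGCANGCG), ETS (CCGGAAG), YY1 (AANATGGCG), GC box (GGGCGG) and TATA box (TATAAA) letters. The 6 windows below were picked from genes named below, as some with letters found more often in member windows than in others, and 2 isoforms that lack NRF-1, ETS and YY1 letters. This lack is not particular to isoforms. The windows of Ndufv1, Uqcrfs1 and Ndufa4, which are also named below, hold no match of the 5 motifs. A second window of Atp5j, not shown, holds 2 GC boxes alone. Capitals mark every match of these 5 motifs. Sdha, the flavoprotein of complex II (chr13:74350191-74350490, minus strand), holds 3 NRF-1 matches, and Sdhb, its iron-sulphur subunit (chr4:140961021-140961320, plus strand), holds 3 GC boxes and an ETS match. Uqcr11, a small subunit of complex III (chr10:80406772-80407071, minus strand), holds an ETS and an NRF-1 match, and Atp5j, the coupling factor of complex V (chr16:84834927-84835226, minus strand), a YY1 and an ETS match. Cox6b2, the testis isoform of a complex IV subunit (chr7:4753045-4753344, minus strand), holds a GC box alone, and Cox8b, a heart and muscle isoform (chr7:140900397-140900696, minus strand), a TATA box alone.
Sdha: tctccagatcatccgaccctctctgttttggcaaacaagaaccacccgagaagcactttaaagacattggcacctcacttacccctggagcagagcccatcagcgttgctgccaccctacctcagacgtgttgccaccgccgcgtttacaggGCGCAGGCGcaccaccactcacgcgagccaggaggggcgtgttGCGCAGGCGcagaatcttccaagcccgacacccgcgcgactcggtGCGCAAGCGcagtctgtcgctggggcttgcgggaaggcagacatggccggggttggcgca
Sdhb: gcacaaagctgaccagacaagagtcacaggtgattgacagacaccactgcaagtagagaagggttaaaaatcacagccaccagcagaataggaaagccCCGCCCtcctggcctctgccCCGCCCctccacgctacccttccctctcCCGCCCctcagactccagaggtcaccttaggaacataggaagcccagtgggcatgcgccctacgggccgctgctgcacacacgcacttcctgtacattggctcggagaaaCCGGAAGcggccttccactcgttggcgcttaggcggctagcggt
Uqcr11: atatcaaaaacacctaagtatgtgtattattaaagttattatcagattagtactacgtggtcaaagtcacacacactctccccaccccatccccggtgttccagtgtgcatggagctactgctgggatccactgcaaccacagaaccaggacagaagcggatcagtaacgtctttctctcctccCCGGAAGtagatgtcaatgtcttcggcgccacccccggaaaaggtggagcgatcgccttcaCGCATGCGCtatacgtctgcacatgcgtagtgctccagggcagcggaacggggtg
Atp5j: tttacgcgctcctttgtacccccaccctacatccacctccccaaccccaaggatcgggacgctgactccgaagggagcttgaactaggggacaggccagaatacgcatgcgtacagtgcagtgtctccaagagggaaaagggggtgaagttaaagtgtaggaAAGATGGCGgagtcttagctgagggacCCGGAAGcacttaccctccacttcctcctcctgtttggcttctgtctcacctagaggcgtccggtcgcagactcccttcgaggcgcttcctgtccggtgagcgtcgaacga
Cox6b2: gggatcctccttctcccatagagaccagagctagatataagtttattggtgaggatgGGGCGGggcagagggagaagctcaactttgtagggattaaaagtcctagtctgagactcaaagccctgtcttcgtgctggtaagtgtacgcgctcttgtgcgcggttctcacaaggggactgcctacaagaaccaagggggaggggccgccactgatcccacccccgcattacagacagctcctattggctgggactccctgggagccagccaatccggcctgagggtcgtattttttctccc
Cox8b: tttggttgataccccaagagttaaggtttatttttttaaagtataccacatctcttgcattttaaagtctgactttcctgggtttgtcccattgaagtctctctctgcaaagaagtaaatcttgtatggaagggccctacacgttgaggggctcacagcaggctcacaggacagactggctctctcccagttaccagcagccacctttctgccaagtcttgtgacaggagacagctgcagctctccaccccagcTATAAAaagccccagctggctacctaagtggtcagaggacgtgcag

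NRF-1 letters stood in 27.7% of the 83 member windows, against 6.28% of all 32619 windows and 8.65% of the 21045 windows of protein-coding genes. ETS letters stood in 22.9% against 8.92% and 11.7%, and YY1 letters in 13.3% against 2.39% and 3.14%. At least 1 of these 3 motifs was found in 44 windows (53.0%), against 15.5% of all windows and 20.6% of those of protein-coding genes. The GC box was found in 43.4% of member windows, 35.9% of all and 46.7% of those of protein-coding genes, and the TATA box in 10.8%, 13.7% and 12.7%. The 88 windows of cytosolic ribosomal protein genes, another large set of genes used by every cell, held NRF-1 letters in 12.5%, ETS in 30.7% and YY1 in 11.4%. Member windows had a median GC content of 58.3% and 20 CpGs, and all windows 53% and 7. A match is a stretch of letters, and no binding was measured.

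Total counts per library were 33663505 to 77396321 at TP1 and 5111223 to 36401717 at TP2, so that single values are less precise at TP2. By correlation over all peaks, the nearest library came from the same RF for 24 of 25 libraries at TP1 and 21 of 25 at TP2, and the main counts at TP2 are also given without 3 of the exceptions (replicates 3 and 5 of RF1 and replicate 5 of RF2). The library nearest to replicate 5 of RF1 at TP2, and that nearest to replicate 5 of RF2, came from RF5. The ranges of named genes given below keep these libraries in the group of their label. Of 100 pairs of libraries from the same group, 20 differed by no more than sampling noise, and such libraries were counted as 1 sample in means ± SD. Another 7 pairs within this limit came from different groups of the same TP and were left apart. The tests used all 5 libraries of a group, so that their errors are too small if such libraries hold the same material. All 7 neuronal marker genes had a peak, with summed values of 190.2 to 264.2 CPM (read counts scaled to a common library total) at TP1 and 198.1 to 239.5 CPM at TP2. Those of the 4 astrocyte markers summed to 25.1 to 38.7 CPM over both TPs, 4 of 5 oligodendrocyte markers with a peak to 28 to 37.7 CPM, 2 of 3 microglial markers to 15.4 to 29.7 CPM and 1 of 2 endothelial markers to 0.495 to 2.3 CPM. In sorted nuclei taken in bulk, fewer nuclei of a type and less open DNA per nucleus cannot be told apart.

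Most of these genes were open in every library. The authors' peak calls overlapped the main peak in all 50 libraries for 83 of the 94 genes. The main peaks had a median level of 11.2 CPM per kb of peak, with 25% of them under 6.88 and 25% over 17.1. The median over the main peaks of 15916 protein-coding genes was 8.82 CPM per kb, and 64 of the 94 lay above it and 27 above the upper quartile of 15.9. For 97 ribosomal protein genes the median was 13.6 CPM per kb.

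Levels ranged between complexes. The 7 core subunits of complex I, which carry its redox centres, had a median of 20.2 CPM per kb, the 17 subunits of complex V 14.6, the 4 of complex II 11.7, the 31 accessory subunits of complex I 11.4, its 8 assembly factors 11.2, the 8 subunits of complex III 10.8 and the 19 genes of complex IV 6.65. The value for complex IV is that of Cox5a, whose peak lies at an end of the gene and covers none of its promoter window. The highest levels were those of Ndufa11 (45.0 CPM per kb), a membrane-arm subunit of complex I, Uqcrq (41.3), a small subunit of complex III, Ndufaf8 (35.0), an assembly factor, Ndufb5 (34.5), an accessory subunit, and Ndufv2 (29.3), a core subunit. The peaks of the first 4 also lie within 2 kb of another gene (Vmac, Gdf9, Tepsin and Mrpl47), and that of Ndufv2 does not. In all, 51 of the 94 main peaks lie within 2 kb of another protein-coding gene, among them those that Atp5j has in common with Gabpa and Sdha with Ccdc127, and their reads cannot be assigned to 1 of the genes.

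Among the lowest levels were those of Ndufb4c (1.70 CPM per kb), Cox8c (1.88), Cox6b2 (2.38) and Cox4i2 (2.42). Tissue-restricted isoforms of complex IV lay below their widely expressed counterparts in most cases. Cox4i2, the lung isoform, was at 2.42 and Cox4i1 at 21.5 CPM per kb, and Cox6a2, the heart and muscle isoform, at 2.49 and Cox6a1 at 13.9. Cox6b2 was at 2.38 and Cox6b1 at 7.74, whereas Cox8b and Cox8c were at 2.72 and 1.88 and Cox8a at 18.6. The exceptions were Cox7b2 (4.71, with Cox7b at 4.06) and Ndufa4l2 (15.9, with Ndufa4 at 11.4), and the peak of Ndufa4l2 is shared with Stac3. The peak of Cox7b2 lies 1411 bp beyond the end away from its start, whereas that of Cox7b covers the start. Those of Cox4i2 and Cox6a2 lie 882 and 1416 bp outside an end of the gene, and which end is the start was not given. The levels of these 3 are thus of flanking peaks. So is that of Ndufb4c, whose peak lies 1764 bp outside the gene and was called in 11 of 50 libraries. Cox7a1, the muscle isoform, had 4.72 CPM per kb, and its counterpart Cox7a2 had no peak within 2 kb of either end. The main peak of Cox7a1 also lies outside the gene, 1292 bp before its start, and another peak that covers the start had 4.52 CPM per kb. The nearest peak to an end of Cox7a2 was 3.5 kb away, with 1 peak inside the gene, and the nearest to Ndufb4b, the other gene without a peak, 26.9 kb. The promoter window of Cox7a2 (chr9:79759804-79760103) lies inside the gene and more than 2 kb from either end, where the rule on ends does not look.

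**Figure D1:**
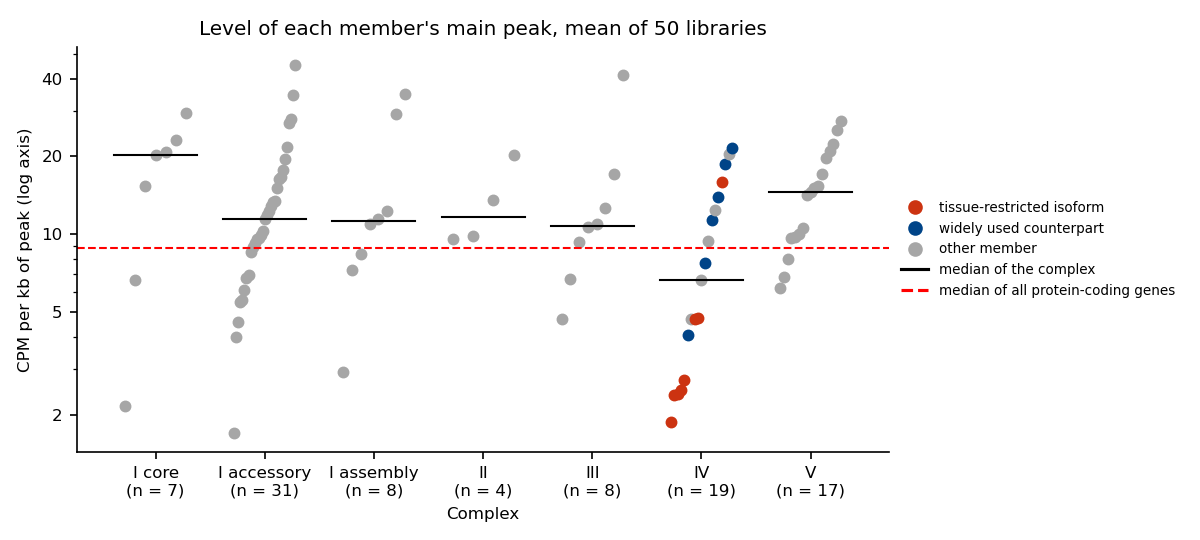
Level of the main peak of each gene (mean over 50 libraries, in CPM per kb of peak, log axis), 1 point per gene, by complex, with a black line at the median of each complex and a dashed line at the median of all protein-coding genes. Complex I core subunits have a median of 20.2 and complex IV genes of 6.65 CPM per kb, where the restricted isoforms other than Ndufa4l2 (15.9) lie at or below 4.72.

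Which of these genes depended on where the mice were reared was tested at each TP by an F-test over the 5 RFs across all peaks (edgeR, FDR below 0.01). At TP1, 136 of the 155 peaks (87.7%) depended on RF, against 59.1% of all peaks tested, 80.3% of those at the ends of protein-coding genes and 86.2% of the 145 at ribosomal protein genes. At TP2 the count was 97 (62.6%), against 30.8%, 55.1% and 77.9%. Differences were modest in size. The range between the highest and lowest RF means had a median of 0.47 on the log2 scale (1.39-fold) over the 94 main peaks at TP1 and of 0.40 (1.32-fold) at TP2, and over the main peaks of all protein-coding genes of 0.47 and 0.38. A difference between at least 1 pair of RFs, with a log2 fold change of 0.5 or more in size, was called for 70 peaks (45.2%) at TP1, against 38.6% of all peaks and 42.4% of those at gene ends. At TP2 it was called for 31 (20%), against 21% and 21.9%. The members' shares for pairs are thus near those of gene ends in general.

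Correcting each library for the mean deviation of the other peaks in the same 1 Mb window (fixed windows along the chromosome, with no correction under 10 other peaks, as at 3 main peaks) lowered the counts at TP2 from 97 to 51 for RF and from 31 to 0 for pairs (edgeR, with 7 at an unadjusted p under 0.05), and without the 3 libraries near another RF the counts were 116 and 48. Over all peaks the 1 Mb offset lowered the shares from 30.8% to 9.48% for RF and from 21% to 3.75% for pairs, and without the 3 libraries they were 49.5% and 36.1%, where 31% of the members had a called pair. Adding libraries that differed by no more than sampling noise into 1, with no term for the replicate number, gave 62 RF-dependent peaks at TP2 (40%, against 15% of all peaks).

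By complex, the main peaks that depended on RF at TP1 and TP2 were 29 and 24 of the 31 accessory subunits of complex I, 6 and 5 of its 7 core subunits and 8 and 5 of its 8 assembly factors. All 4 peaks of complex II did at both TPs. For complex III they were 8 and 7 of 8, for complex IV 18 and 15 of 19, and for complex V 17 and 14 of 17. In all, 90 of 94 main peaks depended on RF at TP1 and 74 at TP2. The shares at TP1 and TP2 were 59.1% and 30.8% of all peaks and 80.3% and 55.1% of those at gene ends. A called pair was found for 42 of them at TP1, among which were 7 of the 8 assembly factors, and for 17 at TP2, with 0 of the 17 in complex V (also 0 at an unadjusted p under 0.05 with the same fold limit, and by DESeq2). Of the 61 other peaks, 46 depended on RF at TP1 and 23 at TP2.

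**Figure D2:**
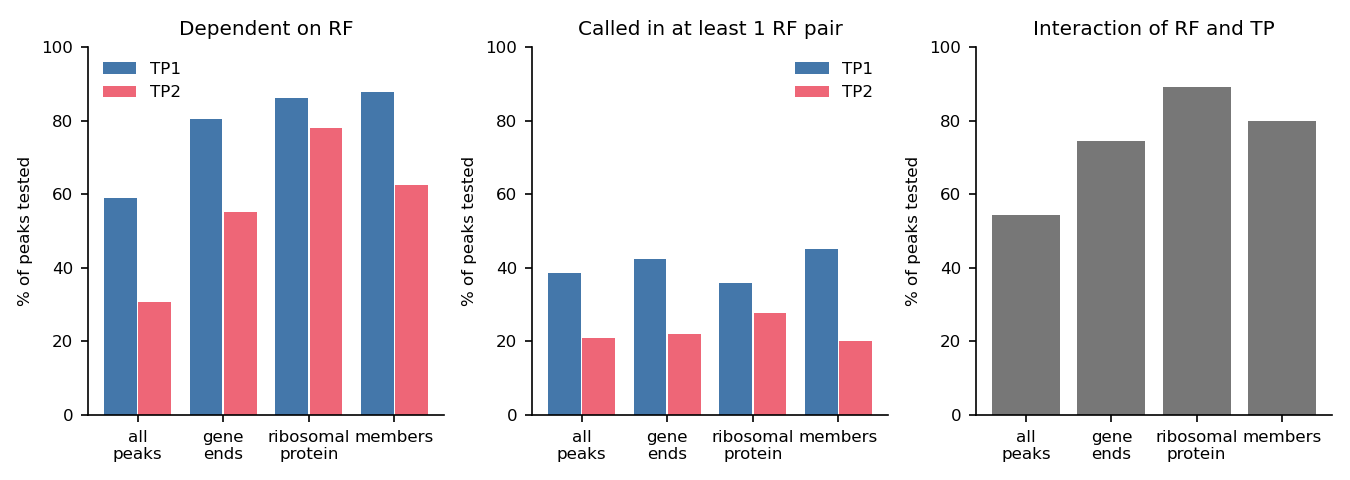
Percent of peaks called (vertical axis) for dependence on RF at TP1 and TP2, for at least 1 called pair of RFs and for the interaction of RF and TP, in all peaks tested, peaks at ends of protein-coding genes, ribosomal protein genes and the 155 member peaks. Members stand at 87.7% and 62.6% for RF, above all peaks (59.1% and 30.8%), and at 20% against 21% for pairs at TP2.

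The direction of the differences was described by setting each RF against the mean of the other 4, as a log2 difference that is negative where the RF is lower. At TP1, RF4 had the lowest fitted mean at 69 of the 94 main peaks, and RF1 the highest at 42 and RF5 at 35. RF4 was lower at 68 main peaks and higher at 2, with a median of -0.29, against 11.5% of all peaks lower and 6.58% higher and a median of -0.129 at gene ends. Lower in RF4 were 49.0% of the 155 member peaks, 40.1% of peaks at gene ends and 53.8% of those at ribosomal protein genes. Main peaks are those with the most reads, whereas peaks at gene ends include weaker ones. Directions at the main peaks of other genes are not given here, so that the part of this choice of peak was not tested. RF1 was higher at 46 and lower at 20 (24.2% and 22.4% of all peaks), with a median of 0.12 that was -0.02 with a loess offset, explained with the scaling below, and RF5 was higher at 38 and lower at 2 (12% of all peaks higher and 10.9% lower), with a median of 0.15. RF3 was higher at 16 and lower at 5 (9.87% and 3.98% of all peaks), and at 7 and 18 with the loess offset. Over all 155 peaks RF1 was higher at 52 and lower at 48, with a median of -0.0213. The 61 peaks that are not main peaks had medians of -0.20 in RF1 (6 higher and 28 lower) and 0.138 in RF4 (13 higher and 8 lower), opposite in sign to the main peaks. RF2 was called at 0 main peaks by edgeR and by DESeq2, with 12 at an unadjusted p under 0.05 (0.679% of all peaks were higher and 0.496% lower).

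At TP2, RF3 took the place that RF4 had at TP1. RF3 had the lowest fitted mean at 60 main peaks, and was lower at 48 and higher at 0, with a median of -0.23, against 9.57% of all peaks lower and 7.11% higher and a median of -0.150 at gene ends. Lower in RF3 were 41.9% of the 155 member peaks, 32.3% of peaks at gene ends and 59.3% of those at ribosomal protein genes. By edgeR 5 of the 94 were higher in RF3 at an unadjusted p under 0.05, and DESeq2 called 1. RF4 was lower at 17 and higher at 8 (4.96% and 5.33% of all peaks). RF5 had the highest mean at 39 and was higher at 21 and lower at 1 (2.46% of all peaks higher and 2.24% lower). RF2 was higher at 9 (0.692% and 0.127%), and RF1 was higher at 10 and lower at 2 (6.24% and 2.79%), and at 2 and 5 with the loess offset. Higher at gene ends were 15.2% in RF1, 2.79% in RF2 and 9.54% in RF5, with 10.6%, 9.57% and 22.3% of main peaks. Lower in RF4 were 8.66% at gene ends and 18.1% of main peaks. As at TP1, peaks at gene ends include weaker ones.

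Part of these directions depended on the scaling. With an offset that removes trends with the level of a peak (loess), RF4 at TP1 was lower at 17 and higher at 7 with a median of -0.04, RF3 at TP2 was lower at 16 and higher at 7 with a median of -0.05, and the medians of RF1 and RF3 at TP1 changed sign to -0.02 and -0.04. Over gene ends it moved the median of RF4 at TP1 from -0.129 to -0.00541 and that of RF3 at TP2 from -0.150 to -0.0711, so that the main peaks lay below gene ends by less than without it at TP1 and not below them at TP2. Over all 155 peaks, the median of RF4 at TP1 went from -0.18 to 0.0042, and that of RF3 at TP2 with the loess offset was -0.0824, below that of gene ends. The median of RF5 at TP2, 0.06 over main peaks, was -0.0126 over all 155, and with the loess offset 0.0306 and -0.0487. RF5 at TP1 had 30 higher and 7 lower with the loess offset, in place of 38 and 2, and its median went from 0.145 to 0.0642. With the 1 Mb offset, RF4 at TP1 was lower at 75 and higher at 3, RF1 was higher at 66 and lower at 3, and RF3 at TP2 was lower at 15 and higher at 0. Neuronal markers moved with these groups. Their summed level, in CPM of TMM-scaled library sizes, was lowest in RF4 at TP1 (177.4 to 191.3, with medians of 229.5 to 241.6 in the other RFs) and in RF3 at TP2 (190.1 to 194, with medians of 215.8 to 241.2 in the others). Oligodendrocyte markers were also lowest in RF4 at TP1 (median 28.4, against 32.4 to 37.5), and in RF3 at TP2 they had 30.5 (30.4 to 35.1). Astrocyte markers had 28.2 in RF4 at TP1 (28.7 to 33.9) and 32.5 in RF3 at TP2 (31.8 to 35.5), and microglial markers 25.0 (17.8 to 25.1) and 20.1 (20.5 to 25.5). The part of any of these in the members' values was not tested.

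**Figure D3:**
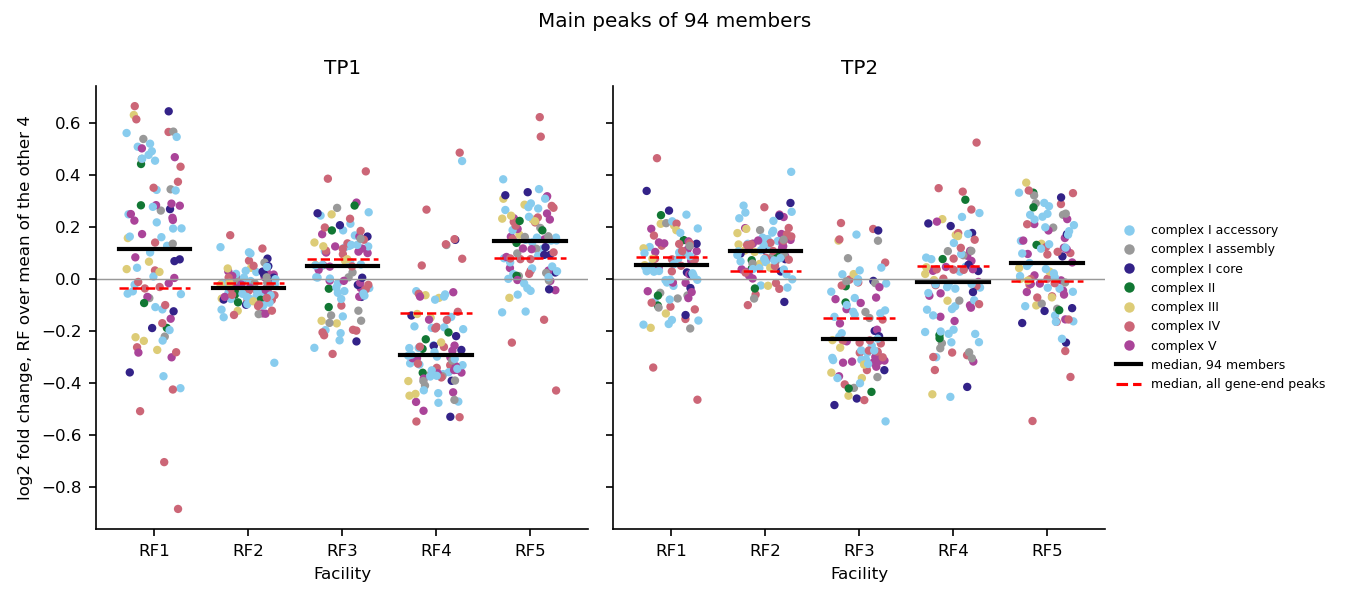
Difference of each RF from the mean of the other 4 (log2, TMM scaling) at the 94 main peaks, 1 point per gene, by RF and TP, coloured by complex, with black lines at the medians and dashed lines at those of all gene-end peaks. Gene-end peaks include peaks that are not the main peak of a gene. RF4 at TP1 (median -0.29) and RF3 at TP2 (median -0.23) lie lowest, and with the loess offset these medians are -0.04 and -0.05.

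Among the 10 pairs of RFs at TP1, RF1 against RF4 gave the most calls, with 51 of 155 peaks (35 higher and 16 lower in RF1), against 11.4% and 8.69% of all peaks. These were 22.6% and 10.3% of member peaks, with 18.3% and 9.39% at gene ends. RF1 against RF3 gave 27 (13 higher and 14 lower, against 10.6% and 9.5%), RF1 against RF5 22 (8 higher and 14 lower, against 12.9% and 9.52%), and RF4 differed from RF5 at 12, all lower (2.7% of all peaks lower and 1.65% higher). At gene ends 6.91% were higher and 12.4% lower in RF1 than in RF3, and 6.41% and 11.2% than in RF5. Lower in RF4 than in RF5 were 6.0% at gene ends, with 7.74% of member peaks. At TP2, RF3 differed from RF4 at 16, all lower (4.48% of all peaks lower and 6.62% higher), and RF1 was higher than RF3 at 14 and lower at 1 (4.54% and 5.59%). Lower in RF3 than in RF4 were 10.3% of member peaks and 9.39% of peaks at gene ends. Higher in RF1 than in RF3 were 9.03% and 10.8%, so that members were near gene ends in general. RF4 against RF5 gave 7 higher and 5 lower (2.83% and 2.45%), and RF1 against RF4, which differed most at TP1, gave 0 calls by edgeR and by DESeq2 (0.229% and 0.0762%), also at an unadjusted p under 0.05 with the same fold limit.

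The widest range between RFs at TP1 was that of Cox8b (chr7:140897622-140899590). Its peak lies 856 bp from the start of Cox8b and also within 2 kb of Psmd13, a proteasome subunit gene, and it covers none of the promoter window shown above. It held 24 to 437 reads per library. At TP1, the 5 libraries of RF1 held 3.13, 3.15, 4.35, 3.16 and 2.59 CPM and those of RF2 5.50, 5.09, 4.40, 5.03 and 4.78 CPM. In RF3 they held 6.16, 6.02, 7.05, 7.64 and 6.93 CPM, those of RF4 6.79, 6.25, 7.74, 6.93 and 7.32 CPM and those of RF5 5.15, 5.71, 6.54, 5.38 and 5.61 CPM. All libraries of RF1 lay below all libraries of RF2, RF3, RF4 and RF5, with 3.28 ± 0.644 CPM (SD, n = 5) in RF1 and 7.06 ± 0.457 CPM (SD, n = 4) in RF4. RF1 was lower than the other RFs with a difference of -0.88 ± 0.0810 (SE; adjusted p = 1.06e-13) on the log2 scale, and RF4 and RF3 were higher by 0.49 and 0.41. The range was 1.10, or 2.14-fold. At TP2, the 5 libraries of RF1 held 6.56, 6.53, 4.79, 4.22 and 4.21 CPM and those of RF2 6.95, 5.85, 6.02, 4.77 and 3.39 CPM. RF3 libraries held 4.94, 4.76, 3.58, 4.10 and 4.01 CPM, those of RF4 6.84, 7.27, 5.95, 6.90 and 6.63 CPM and those of RF5 4.26, 3.08, 4.13, 4.03 and 4.87 CPM. RF1 spread widely and overlapped RF4, which lay above all libraries of RF3 and RF5. RF4 was higher than the others by 0.53 ± 0.102 (SE; adjusted p = 1.40e-04), and RF1 differed by 0.08 (adjusted p = 0.673). The dependence on RF at TP2 (adjusted p = 3.41e-05) did not pass with the 1 Mb offset.

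Cox6a2 (chr7:128207782-128208731, a peak 1416 bp outside an end of the gene) had the second widest range at TP1. It held 13 to 214 reads per library. At TP1, the 5 libraries of RF1 held 1.64, 1.91, 1.67, 1.57 and 1.42 CPM and those of RF2 2.58, 1.92, 2.22, 2.22 and 2.48 CPM. In RF3 they held 2.59, 2.27, 2.07, 2.13 and 3.49 CPM, those of RF4 2.97, 2.89, 2.83, 2.08 and 2.31 CPM and those of RF5 3.06, 4.01, 3.48, 3.33 and 3.29 CPM. RF1 lay below all libraries of RF2, RF3, RF4 and RF5 (its highest was 1.91 and the lowest of RF2 1.92), and RF5 lay above all libraries of RF2 and RF4. RF1 was lower with a difference of -0.70 ± 0.112 (SE; adjusted p = 4.32e-07) and RF5 higher by 0.62 ± 0.1 (SE; adjusted p = 2.06e-06), with a range of 1.06. At TP2, the 5 libraries of RF1 held 2.37, 3.23, 2.60, 1.60 and 1.81 CPM and those of RF2 1.77, 3.08, 1.82, 3.16 and 1.60 CPM. RF3 libraries held 1.54, 2.22, 2.08, 2.45 and 1.25 CPM, those of RF4 2.06, 3.16, 2.57, 2.3 and 3.14 CPM and those of RF5 1.42, 2.15, 1.74, 2.54 and 2.33 CPM. All pairs of RFs overlapped, and the dependence on RF did not pass (adjusted p = 0.166, edgeR).

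Cox6b2 (chr7:4751600-4753971, shared with Fam71e2) had the widest range at TP2, and its differences turned between TPs. It held 36 to 473 reads per library. At TP1, the 5 libraries of RF1 held 4.62, 4.39, 5.77, 4.35 and 3.77 CPM and those of RF2 5.95, 5.69, 5.58, 5.66 and 5.16 CPM. In RF3 they held 8.08, 6.51, 7.59, 8.68 and 6.76 CPM, those of RF4 4.91, 6.52, 6.39, 6.54 and 6.94 CPM and those of RF5 6.04, 7.64, 6.99, 6.71 and 6.67 CPM. RF1 held 4.58 ± 0.736 CPM (SD, n = 5) and RF3 7.42 ± 0.814 CPM (SD, n = 3), and the 2 groups did not overlap. At TP2, the 5 libraries of RF1 held 7.19, 6.42, 7.19, 6.58 and 5.25 CPM and those of RF2 6.64, 5.27, 7.13, 5.55 and 3.2 CPM. RF3 libraries held 2.93, 4.31, 3.90, 4.05 and 4.82 CPM, those of RF4 5.57, 6.44, 6.40, 6.10 and 5.79 CPM and those of RF5 3.58, 4.13, 3.50, 3.18 and 4.08 CPM. RF5 lay below all libraries of RF1 and RF4, with 3.70 ± 0.257 CPM (SD, n = 4) against 6.53 ± 0.796 CPM (SD, n = 5) in RF1. RF1 was lower with a difference of -0.51 ± 0.0777 (SE; adjusted p = 1.88e-07) at TP1 and higher by 0.47 ± 0.107 (SE; adjusted p = 0.00132) at TP2, where RF5 was lower (-0.55) and RF3 was lower (-0.40). With the 1 Mb offset the dependence on RF did not pass at either TP.

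**Figure D4:**
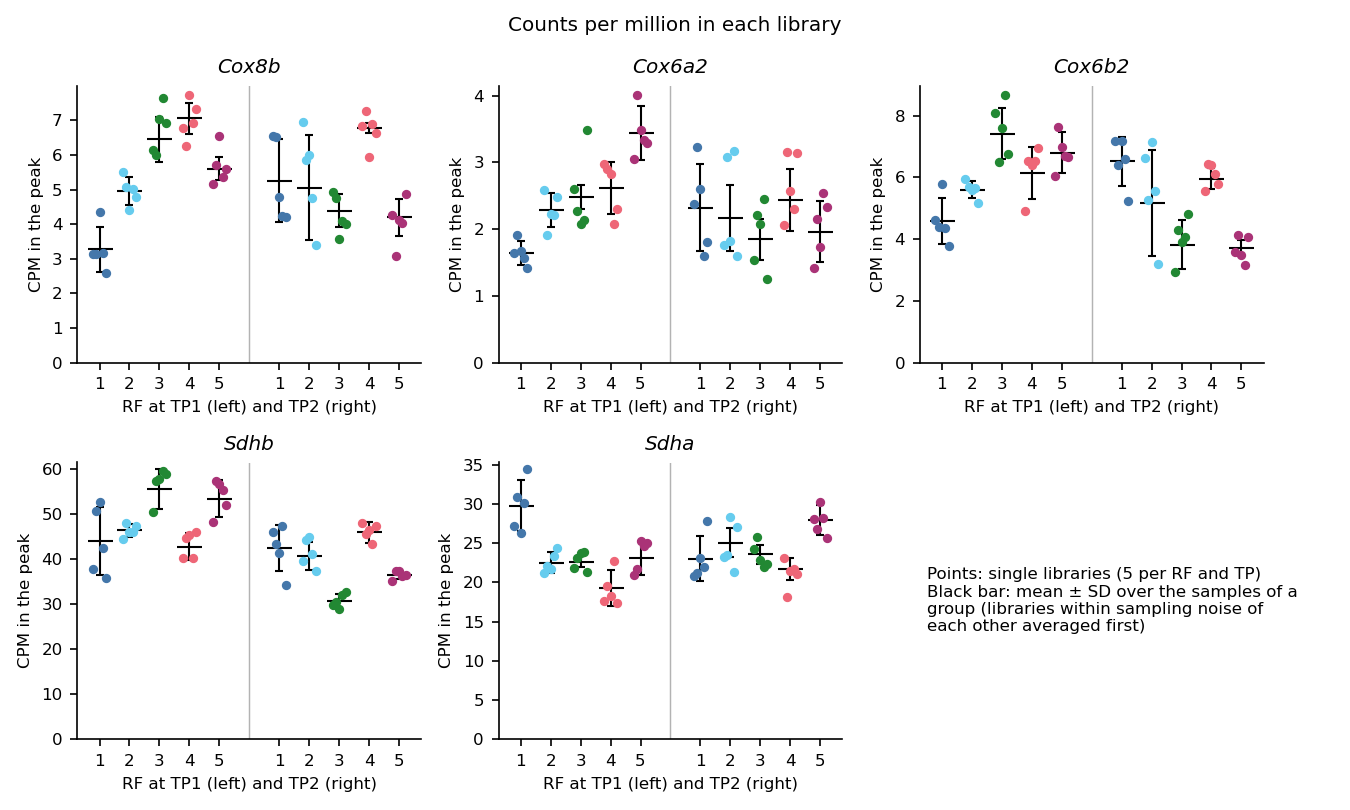
Values of the main peak in each library (CPM, vertical axis), by RF and TP, for Cox8b, Cox6a2, Cox6b2, Sdhb and Sdha, 1 point per library, with the group mean and SD (libraries within sampling noise of each other averaged first). The RF1 libraries of Cox8b lie at 2.59 to 4.35 CPM at TP1, below all others of TP1, and at 4.21 to 6.56 CPM at TP2.

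All 4 genes of complex II, the smallest of these complexes, depended on RF at both TPs, where 95.7% and 78.7% of all main peaks did. The calls of Sdha and Sdhb at TP2 did not hold under every alternative. Sdhb (chr4:140960295-140962464) had the smallest p-value among the 94 main peaks for the interaction of RF and TP, which tests whether the differences between RFs changed between TPs. It held 207 to 3536 reads per library. At TP1, the 5 libraries of RF1 held 37.9, 50.9, 52.8, 42.4 and 35.9 CPM and those of RF2 44.5, 48.2, 46.2, 46.0 and 47.4 CPM. In RF3 they held 50.6, 57.4, 57.9, 59.6 and 59.0 CPM, those of RF4 40.3, 44.7, 45.4, 40.3 and 46.1 CPM and those of RF5 48.4, 57.4, 56.7, 55.3 and 52.1 CPM. RF3 was among the highest and overlapped RF5, and it lay above all libraries of RF2 and RF4. At TP2, the 5 libraries of RF1 held 46.1, 43.4, 41.3, 47.3 and 34.4 CPM and those of RF2 39.6, 44.3, 45.0, 41.2 and 37.3 CPM. RF3 libraries held 29.8, 30.4, 29.0, 32.0 and 32.8 CPM, those of RF4 48.1, 45.6, 46.5, 43.5 and 47.5 CPM and those of RF5 35.2, 37.5, 37.5, 36.4 and 36.4 CPM. RF3 lay below all libraries of the other RFs, with 30.6 ± 1.56 CPM (SD, n = 3) against 46.0 ± 2.32 CPM (SD, n = 3) in RF4. The lowest RF1 value, 34.4 CPM, is that of replicate 5, whose nearest library came from RF5. RF3 was higher than the others by 0.28 ± 0.0488 (SE; adjusted p = 1.93e-05) at TP1 and lower with a difference of -0.43 ± 0.0519 (SE; adjusted p = 8.01e-10) at TP2, and RF4 was lower (-0.20) and then higher by 0.31. The interaction had an adjusted p of 2.02e-16, and between 2.62e-26 and 7.79e-08 under all alternatives. The higher value of RF3 at TP1 was -0.0036 with the 1 Mb offset, with which the dependence on RF at TP2 did not pass either.

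Sdha (chr13:74349074-74351487, shared with Ccdc127) differed in another way. It held 116 to 1797 reads per library. At TP1, the 5 libraries of RF1 held 27.2, 30.9, 26.3, 30.1 and 34.5 CPM and those of RF2 21.2, 22.1, 21.7, 23.4 and 24.4 CPM. In RF3 they held 21.9, 23.1, 23.8, 23.9 and 21.3 CPM, those of RF4 17.7, 19.5, 18.3, 22.8 and 17.4 CPM and those of RF5 20.9, 21.7, 25.3, 24.7 and 25.1 CPM. All libraries of RF1 lay above those of the other RFs, with 29.8 ± 3.22 CPM (SD, n = 5) against 19.3 ± 2.34 CPM (SD, n = 4) in RF4. At TP2, the 5 libraries of RF1 held 20.8, 21.3, 23.2, 22 and 27.9 CPM and those of RF2 23.2, 23.5, 28.4, 21.3 and 27.1 CPM. RF3 libraries held 24.3, 25.9, 22.9, 21.9 and 22.4 CPM, those of RF4 23.1, 18.2, 21.5, 21.8 and 21.1 CPM and those of RF5 28.1, 26.8, 30.3, 28.3 and 25.7 CPM. RF5 lay above all libraries of RF4, and no other pair was apart. The overlap of RF1 with RF5 rests on replicate 5 of RF1 (27.9 CPM), whose nearest library came from RF5. The other RF1 libraries held 20.8 to 23.2 CPM. RF1 was higher by 0.44 ± 0.05 (SE; adjusted p = 7.77e-11) and RF4 lower (-0.36) at TP1, and RF5 higher by 0.28 ± 0.0557 (SE; adjusted p = 5.47e-04) and RF4 lower (-0.23) at TP2. The call at TP2 was lost when libraries within sampling noise were added together (adjusted p = 0.0106). Sdhc, a membrane anchor of the complex (its peak lies within 2 kb of another gene too), had the signs of Sdha, with RF1 higher by 0.28 and RF4 lower (-0.27) at TP1, and RF5 higher by 0.33 at TP2. Sdhd, the other anchor (shared with Nkapd1 and Timm8b), had the signs of Sdhb in RF1, RF3 and RF4 at both TPs, with RF3 higher by 0.19 at TP1 and lower (-0.42) at TP2.

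In complex I, the widest ranges at TP1 were those of genes with RF1 high and RF4 low. Ndufs1, a core subunit with iron-sulphur clusters (chr1:63175953-63177735, shared with Eef1b2), was higher in RF1 by 0.65 ± 0.0479 (SE; adjusted p = 5.91e-17) and lower in RF4 (-0.53). Ndufa5, an accessory subunit, was higher in RF1 by 0.55 and lower in RF4 (-0.47), and Ndufaf4, an assembly factor, was higher in RF1 by 0.57 and lower in RF4 (-0.39). At TP2 RF4 remained lower at Ndufs1 (-0.41) and Ndufaf4 (-0.30), and RF5 was higher (0.31 and 0.25). Ndufs4, an accessory subunit whose loss causes Leigh-like disease, was higher in RF1 by 0.49 at TP1 and lower in RF4 (-0.45) at TP2.

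Ndufv1, the core subunit that binds NADH (chr19:4012078-4013336), went the other way. RF1 was lower with a difference of -0.36 ± 0.0588 (SE; adjusted p = 9.73e-07) at TP1 and higher by 0.34 ± 0.0581 (SE; adjusted p = 2.84e-05) at TP2, and RF3 was higher by 0.25 and then lower (-0.48). Its interaction had an adjusted p of 5.71e-16, but 0.31 with the 1 Mb offset, where the value of RF1 at TP1 was 0.0045. Ndufb10, an accessory subunit whose main peak lies at the end shared with Rps2 and Rnf151, was lower in RF3 with a difference of -0.55 ± 0.0585 (SE; adjusted p = 3.34e-11) at TP2. The peak at its start had -0.38 in RF3 (adjusted p = 4.49e-05).

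In complex III, Uqcrfs1, the Rieske iron-sulphur protein (chr13:30544437-30546153), was higher in RF1 by 0.63 ± 0.0537 (SE; adjusted p = 9.09e-15) and lower in RF4 (-0.44) at TP1. At TP2 RF4 was again lower, with a difference of -0.44 ± 0.0826 (SE; adjusted p = 2.22e-04), and RF5 higher by 0.37. Uqcr11 (shared with Tcf3) was lower in RF1 (-0.24) and higher in RF3 by 0.25 at TP1, and at TP2 higher in RF1 by 0.21 and lower in RF3 (-0.45). The interaction of Uqcr11 had an adjusted p of 1.06e-15, and 0.108 with the 1 Mb offset.

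In complex IV, Ndufa4 (chr6:11906990-11908752, shared with Phf14), a subunit first assigned to complex I, was higher in RF1 by 0.67 ± 0.0577 (SE; adjusted p = 4.54e-14) and lower in RF4 (-0.55) at TP1, and lower in RF4 (-0.30) at TP2, where the 1 Mb offset gave 0.13. The peak of Cox7b2 (chr5:71439012-71441412) lies 1411 bp beyond the end away from its start. Cox7b2 was higher in RF1 by 0.43 ± 0.0602 (SE; adjusted p = 2.16e-08) and lower in RF5 (-0.43) at TP1. At TP2 it was lower in RF1 with a difference of -0.46 ± 0.0804 (SE; adjusted p = 3.66e-05) and higher in RF5 by 0.33. Cox7b on the X chromosome was higher in RF1 by 0.61 at TP1, which was -0.0078 with the 1 Mb offset.

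The values of the other isoform pairs stand side by side at TP1. Cox7a1 was lower in RF1 (-0.42) at TP1 (0.084 with the 1 Mb offset), and Cox6b1 had -0.28 where Cox6b2 had -0.51. Cox6a1 had -0.17 in RF1 where Cox6a2 had -0.70, and RF5 was higher at both, by 0.24 and 0.62. Cox4i2 had -0.26 and Cox4i1 -0.01 in RF1, and Cox8a -0.03 where Cox8b had -0.88. In RF4 the value of Cox8a was -0.38 and that of Cox8b 0.49. Whether isoforms differed from their counterparts was not tested.

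In complex V, Atp5j (chr16:84834401-84836678, shared with Gabpa) was higher in RF1 by 0.50 ± 0.0446 (SE; adjusted p = 3.37e-14) and lower in RF4 with a difference of -0.51 ± 0.0482 (SE; adjusted p = 1.29e-12) at TP1, whereas at TP2 the range was 0.29 with RF5 higher by 0.21. Atp5d, the delta subunit, has its main peak at the end shared with Midn. There RF4 was lower (-0.47) at TP1 and RF3 (-0.37) at TP2, and the peak at the other end of the gene had -0.46 and -0.42. That peak covers the first base of the annotated gene and lies 2708 bp from the nearest start of transcription of its promoter windows. The value of RF4 at TP1 was 0.087 under the loess offset, with which the interaction (adjusted p = 5.40e-14 without it) did not pass. Atp5g1, which encodes subunit c of the proton-driven ring, was higher in RF3 by 0.29 and lower in RF4 (-0.30) at TP1 (0.064 in RF4 under the loess offset). RF3 was then lower (-0.32) at TP2 (interaction adjusted p = 9.63e-14).

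Some members varied little. At TP1 the smallest ranges included those of Ndufa10 (0.09 on the log2 scale, adjusted p = 0.455), Ndufb8 (0.16, adjusted p = 0.144) and Atp5l (0.23, adjusted p = 0.00702). Ndufa10 and Ndufb8 did not pass the F-test with TMM scaling and did with the 1 Mb offset, and Atp5l passed with TMM scaling and did not with the loess offset or without replicate 1, 2 or 4. At TP2 they were those of Ndufa9 (0.15, adjusted p = 0.564), Cox8c (0.16, adjusted p = 0.927), Ndufa12 (0.16, adjusted p = 0.261) and Atp5e (0.18, adjusted p = 0.0632). At Ndufa10 and Ndufb8 RF3 was lower at TP2, at -0.22 (adjusted p = 0.00442) and -0.33 (adjusted p = 3.35e-04).

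Several of the calls above did not hold under every alternative. At TP2, the dependence on RF did not pass at Sdha, Ndufa4, Uqcrfs1, Ndufa5, Atp5j, Ndufa10, Ndufb8, Cox7a1, Cox6b1, Cox4i1, Uqcrq and Ndufb5 when libraries within sampling noise were added together. With the 1 Mb offset it did not pass at Sdhb, Cox8b, Cox6b2, Ndufv1, Uqcr11, Ndufaf4, Cox7b, Cox7a1, Cox6b1, Cox6a1, Cox8a, Ndufa4l2, Ndufb8 and Atp5l at TP2, nor at Cox6b2, Uqcr11, Cox4i2, Cox7a1 and Cox7b at TP1. With the loess offset it did not pass at Atp5l, Ndufb8, Ndufa4l2, Cox4i1, Cox6a1, Cox6b1, Ndufa11, Uqcrq and Ndufb5 at TP2, nor at Atp5l and Ndufa12 at TP1.

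The interaction of RF and TP passed at 124 of the 155 peaks (80.0%), against 54.4% of all peaks, 74.4% of those at gene ends and 89.0% at ribosomal protein genes, and at 86 of the 94 main peaks. With the 1 Mb offset the count was 77 of the 155 (49.7%), near the 48.7% of gene ends, with 25.8% of all peaks. Main peaks at which RF3 differed from the others at both TPs numbered 15, and the direction was opposite at all 15 (5.58% of all peaks and 15.4% of those at gene ends were called at both TPs, with 3355 of 3357 at gene ends opposite). For RF1 there were 8 (7 opposite and 1 the same), with 5.42% of all peaks and 8.82% of gene ends. For RF4 there were 21 (18 the same and 3 opposite), with 3.83% and 12.3%, and for RF5 3 (1 the same and 2 opposite), with 1.28% and 2.97%. Of the pairs of RFs, RF1 against RF3 was called at both TPs at 5 member peaks and RF1 against RF5 at 4, all in opposite directions. At gene ends in general, RF1 against RF3 was called at both TPs at 858 peaks (3.94%), with 857 in opposite directions, and RF1 against RF5 at 428 (1.96%), with 409 opposite. The members' shares of 3.23% and 2.58% are near these.

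The differences of members ran together with those of their surroundings in some RFs and less in others. For each gene, the median difference was computed over the other peaks (2 to 152) in the fixed 1 Mb window of its main peak. Over the 94 genes the correlation between a gene's own value and that of its surroundings was 0.782 for RF1 and 0.785 for RF3 at TP1, and 0.751, 0.857, 0.783 and 0.8 for RF1, RF3, RF4 and RF5 at TP2. It was 0.165 for RF4 at TP1, where the surroundings had a median of 0.01 and the members of -0.29, and 0.57 for RF5, and for RF2 it was 0.304 at TP1 and 0.0849 at TP2. Medians had opposite signs for RF1 at TP1 (-0.133 in the surroundings and 0.116 in members), RF4 at TP2 (0.0841 and -0.00932) and RF5 at TP2 (-0.0522 and 0.0633). These values are across genes, which share libraries and base composition and are not independent replicates.

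Members in gene-poor and gene-rich surroundings differed in direction. The number of protein-coding genes in the 1 Mb window ranged from 1 for Ndufa4 to 56, with a median of 18. In the 32 genes with up to 12, the median of RF1 at TP1 was 0.34, with 28 above 0, and in the 32 genes with more than 22 it was -0.05, with 14 above 0. Uqcrfs1 (7 genes) and Ndufs1 (11) are in the first group, and Cox8b (47), Ndufv1 (49) and Uqcr11 (54) in the second. At TP2 the order was the reverse, with medians of -0.05 and 0.12 for RF1. The medians of RF3 at TP2 were -0.05 and -0.31, those of RF4 -0.15 and 0.07, and those of RF5 0.19 and -0.03. The correlation with the number of genes was -0.479 for RF1 and 0.565 for RF3 at TP1, and 0.531 and -0.556 at TP2. Sdhb, with 10 genes in its window, had -0.19 in RF1 at TP1, on the side of the gene-rich members. Across-gene values share the libraries, and the part of base composition in them was not tested.

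**Figure D5:**
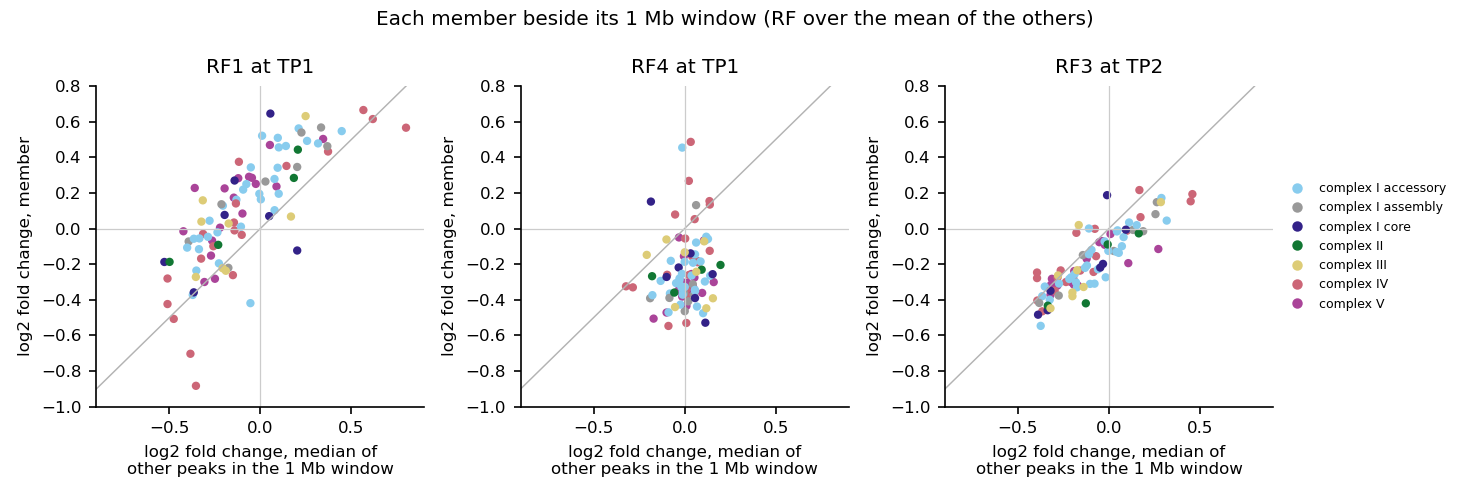
Difference of an RF from the mean of the others at each of the 94 main peaks (vertical axis, log2) against the median over other peaks in its 1 Mb window (horizontal axis, log2), 1 point per gene, coloured by complex, with a line where both are equal. The values of RF1 at TP1 and RF3 at TP2 run together (correlations of 0.782 and 0.857), and those of RF4 at TP1 do so less (0.165).

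Other genes of the pathway were taken from lists of known members. Of 41 assembly factors of complexes I to V outside the rule, 40 had a peak, and 38 main peaks depended on RF at TP1 and 37 at TP2, with a called pair at 14 and 7. The widest ranges were those of Cox18 (0.77 on the log2 scale), Nubpl (0.76) and Cox20 (0.75) at TP1, each highest in RF1 and lowest in RF4, and of Coa3 (0.70), Sdhaf1 (0.67) and Uqcc2 (0.63) at TP2, each highest in RF1 and lowest in RF3. Of 12 genes for cytochrome c and quinone synthesis, 12 and 10 depended on RF, led at TP1 by Hccs (0.83), which attaches haem to cytochrome c, and Cycs (0.65), cytochrome c itself. Of 14 regulators of transcription, 14 and 13 did. Creb1 (0.93), Gabpa (0.81, the same peak as Atp5j) and Ppargc1a (0.62), a coactivator of mitochondrial biogenesis, led at TP1, all 3 highest in RF1 and lowest in RF4, and Esrra (0.52) at TP2. RF4 was lower at TP1 at 28 of 40, 9 of 12 and 12 of 14 main peaks of these lists, and RF3 at TP2 at 30, 4 and 9, with TMM scaling. At gene ends in general, 80.3% of peaks depended on RF at TP1 and 55.1% at TP2, 40.1% were lower in RF4 at TP1 and 32.3% lower in RF3 at TP2. Those shares are of all peaks at gene ends, weaker ones included, whereas the counts of these lists are of main peaks.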

How the data were processed

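Per the labels and the study's methods, ATAC-seq libraries were made from sorted NeuN-positive nuclei of 50 mice. The authors aligned reads with Bowtie2 to GRCm38, marked duplicates with Picard 1.140, called broad peaks in each library with MACS2 2.1.4, merged peaks found in at least 3 libraries of a group and counted reads per merged peak. The deposited raw counts are not normalized and gave every value here. The deposited peak lists with their -log10 q-values served only to count the libraries in which a peak was called. A further deposited table, named as normalized, repeats the raw numbers and was not used. The library totals, from 5111223 to 77396321 counts, set the precision.

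Genes came from a RefSeq annotation of GRCm38.p6, and peaks within 2 kb of either end were taken. Counts were tested over all peaks with edgeR 4.0.16 in R 4.3.3 (TMM, filterByExpr by group, robust quasi-likelihood fits). Each TP had its own model, with terms for RF and for the replicate number, and the interaction was tested over both TPs. By the methods every sorting batch held all RFs, and the replicate number stood for the batch, although no label says so. Calls used a Benjamini-Hochberg FDR below 0.01, and those of pairs also needed a log2 fold change of 0.5 or more in size. The scripts were tested on simulated data. Alternatives used DESeq2 1.42.0, limma 3.58.1 and other offsets, filters and sets of libraries. Libraries whose counts differed by at most 1.02 times sampling noise were counted as 1 sample in means. Named genes are those of complex II, the 8 with the widest range of RF means per TP among those that depended on RF, the 4 with the narrowest, the 5 with the smallest interaction p-value, tissue-restricted isoforms with their counterparts, the 5 highest and the 5 lowest levels, and those without a peak. Of these, 1 gene is not reported here. Members, lists and tests were chosen with earlier results of these data known. Summaries used Python 3.11.15, pandas 2.3.3, numpy 2.4.6, scipy 1.17.1 and matplotlib 3.10.9.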

Additional observations from a re-analysis of the deposited data

Results flagged for a closer look

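Among the 50 groups of libraries of the 5 genes given in full, 2 held a library far from the others, where chance alone gives about 1 in 20. Replicate 1 of RF4 at TP1 had 4.91 CPM at Cox6b2, with the other 4 libraries between 6.39 and 6.94 CPM. Replicate 1 of RF3 at TP1 had 50.6 CPM at Sdhb, with the other 4 between 57.4 and 59.6 CPM. Both are replicate 1 of their group.

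The differences between RFs changed between TPs, by the edgeR test of the interaction, at Sdhb (adjusted p = 2.02e-16), Ndufv1 (5.71e-16), Uqcr11 (1.06e-15), Atp5d (5.40e-14) and Atp5g1 (9.63e-14). By edgeR the interaction did not pass with the 1 Mb offset at Ndufv1 (adjusted p = 0.31) and Uqcr11 (0.108), nor with the loess offset at Atp5d (0.16). At all 5, the value of RF3 against the mean of the others was positive at TP1 and negative at TP2 (0.28 and -0.43 for Sdhb, 0.25 and -0.48 for Ndufv1, 0.25 and -0.45 for Uqcr11, 0.17 and -0.37 for Atp5d, 0.29 and -0.32 for Atp5g1). The 5 were picked by their interaction p-value, and this turn was general. Of 3357 peaks at gene ends called for RF3 at both TPs, 3355 had opposite directions. In these tests TP and sequencing batch cannot be told apart.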

How the results depend on the processing

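The deepest library had 77396321 counts and the shallowest 5111223, so that small differences were less detectable at TP2. The count of peaks with an RF above or below the mean of the others by a log2 difference of at least 0.5 was 28 at TP1 (18.1%, against 19.7% of all peaks) and 4 at TP2 (2.58% against 7.44%). The 1 Mb offset gave 51 RF-dependent peaks at TP2 (97 without it), 0 for pairs at TP2 (31), 12 and 0 for single RFs at TP1 and TP2, and 77 for the interaction (124). Over all peaks it gave 8.02% and 1.63% for single RFs at TP1 and TP2 and 25.8% for the interaction. Both counts of 0 are edgeR's, with 7 peaks for pairs and 2 for single RFs at an unadjusted p under 0.05. The loess offset gave 45 for pairs at TP1 (70). Peaks at the start alone, a smaller set, gave 77 for RF at TP1 (136), 40 and 17 for pairs, 18 and 2 for single RFs and 74 for the interaction. A distance of 1 kb gave 2 for single RFs at TP2. Libraries within sampling noise added together gave 62 for RF and 2 for single RFs at TP2. Without 3 libraries near another RF (replicates 3 and 5 of RF1 and 5 of RF2 at TP2), pairs at TP2 were 48 and single RFs 10. Leaving out 1 replicate number at a time gave 17 to 35 for single RFs at TP1 (17 without replicate 5) and 3 to 10 at TP2 (7 without replicate 3 and 10 without replicate 5). Other counts stayed within 1.5 times, those with DESeq2 among them. Libraries with the same replicate number had a mean correlation of deviations of 0.122 at TP1 (over 0.1 for 22 of 50 pairs, with a mean of -0.0298 for other numbers) and -0.0055 at TP2 (4 of 50, with 0.00222). Not every pair was over 0.1 and no label ties a number to a sorting batch, so that whether the numbers mark batches is not known. The main tests kept the replicate number as a block. Without that block the counts were 132 and 98 for RF, 71 and 32 for pairs, 27 and 4 for single RFs and 126 for the interaction. For each named gene and TP, the RF furthest from the mean of the others was followed, giving 84 values. Of these, 70 passed an FDR below 0.01, and 14 of the 70 kept sign and call under every alternative. The call was lost without a change of sign at 28 values with the 1 Mb offset and at 16 with the loess offset. It was lost at 25 with libraries within sampling noise added together. Of the 84 values, 24 changed sign under 1 alternative, in all cases an offset. With the 1 Mb offset these were, at TP1, -0.0036 for Sdhb in RF3, -0.014 for Ndufa10 in RF5, and in RF1 0.19 for Ndufb8, 0.0045 for Ndufv1, 0.084 for Cox7a1 and -0.0078 for Cox7b. At TP2 they were, in RF4, 0.13 for Ndufa4, 0.074 for Ndufa5 and 0.0032 for Cox7b, and in RF3 0.096 for Cox7a1 and 0.12 for Cox6b1. With the loess offset they were, for RF4 at TP1, 0.040 for Atp5l, 0.0042 for Ndufa12, 0.087 for Atp5d, 0.064 for Atp5g1, 0.16 for Ndufa4l2, 0.079 for Cox4i1, 0.026 for Cox6a1, 0.11 for Ndufa11, 0.022 for Ndufaf8 and 0.028 for Ndufb5, and for RF3 at TP2 0.020 for Ndufa4l2, 0.030 for Uqcrq and 0.017 for Ndufv2. The cause was not tested. The counts for single RFs were computed under alternatives chosen after seeing the data.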
